A study of Mus musculus with 15 samples.

Results

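Fibronectin and 9 integrin subunits were followed in endometrial organoids of the mouse: Fn1, the gene of the extracellular matrix protein fibronectin, and Itga2, Itga3, Itga5, Itga6, Itgav, Itgb1, Itgb3, Itgb5 and Itgb6. The rows were selected by gene symbol, and all 10 were found among the 16729 genes measured. The set was chosen on measured values, because the very low Fn1 level in organoids without SMAD2/3 signaling was already known when the family was put together. Every difference of a member from the control + vehicle group is therefore given as a description, without a p-value.

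The samples formed 4 groups. Control organoids carried the floxed alleles Smad2flox/flox; Smad3flox/flox and were grown with the solvent DMSO (control + vehicle, n = 3) or with A83-01 (control + A83-01, n = 4), an inhibitor of the type I receptors ALK4, ALK5 and ALK7 through which TGFβ, activin and nodal activate SMAD2 and SMAD3. Smad2/3 cKO organoids had the same floxed alleles together with Ltfcre/+, and received DMSO (Smad2/3 cKO, n = 4) or A83-01 (Smad2/3 cKO + A83-01, n = 4). Ltf-cre acts in the estrogen-exposed epithelium of the adult uterus, so that both genes are removed from the epithelium and not from the stroma. The organoids were grown from isolated uterine epithelium of adult mice embedded in Matrigel, a basement membrane gel rich in laminin, and the age of the mice was not given in the labels.

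Fibronectin is secreted as a dimer and assembled into fibrils at the cell surface. Its main receptor is the integrin α5β1, while αv integrins recognise the same arginine-glycine-aspartate motif in fibronectin, in vitronectin and in the propeptide that keeps TGFβ latent. Integrins work as αβ pairs: β1 joins α2 to bind collagen, and α3 and α6 to bind laminin, whereas β3, β5 and β6 are among the partners of αv. In the endometrium, integrins are known for their part in the attachment of the embryo, and Fn1 is a classical gene induced by TGFβ.

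Promoter sequence was available for 7 of the 10 members, as 9 promoters from RefSeq (build GRCm38.p6), and no sequence is printed for Fn1, Itga6 or Itgb3. Those of 3 members are shown, the chains of collagen, fibronectin and vitronectin receptors whose mean level in control + vehicle was the largest multiple of that in each other group among the members that had a promoter: Itga2 (chr13:114932101-114932350, minus strand), Itga5 (chr15:103366792-103367041, minus strand) and Itgb5 (chr16:33829415-33829664, plus strand). Each is the stretch of 250 bases before the annotated start, 5′ to 3′ on the gene's strand, with every copy of the SMAD-binding motif GTCTG, searched on both strands (CAGAC on the other strand), in capitals.
Itga2: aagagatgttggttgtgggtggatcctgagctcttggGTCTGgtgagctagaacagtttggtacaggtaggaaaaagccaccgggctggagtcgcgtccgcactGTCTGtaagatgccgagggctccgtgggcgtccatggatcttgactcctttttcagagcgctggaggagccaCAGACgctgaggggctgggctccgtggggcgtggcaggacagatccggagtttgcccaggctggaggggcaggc
Itga5: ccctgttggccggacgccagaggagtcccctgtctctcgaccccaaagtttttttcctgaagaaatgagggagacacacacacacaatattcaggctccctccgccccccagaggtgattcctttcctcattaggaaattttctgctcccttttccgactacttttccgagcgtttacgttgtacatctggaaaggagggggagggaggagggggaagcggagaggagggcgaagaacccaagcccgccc
Itgb5: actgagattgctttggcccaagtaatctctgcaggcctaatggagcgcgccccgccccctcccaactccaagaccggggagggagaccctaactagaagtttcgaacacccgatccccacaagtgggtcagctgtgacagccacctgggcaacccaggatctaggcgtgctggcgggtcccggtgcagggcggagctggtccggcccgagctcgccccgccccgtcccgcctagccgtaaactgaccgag
Itga2 held 3 copies, whose first bases lay 213, 146 and 74 bases before the start. No copy was in the Itga5 or Itgb5 stretch. A copy was present in 4 of the members' 9 promoters, and Itgb1 also had 3 copies. Of all 32851 RefSeq promoters cut to the same length, 42.2% held at least 1 copy and 2.32% held 3 or more. The AP-1 motif TGANTCA (in 6.75% of all promoters) and the palindrome GTCTAGAC (in 0.167%) were absent from all 9 stretches. These matches are descriptions of the letters and not binding sites.

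Normalized counts summed to 20241771 to 24423127 per sample. The labelled tissue was checked against its markers before the members were compared. The 10 markers of uterine epithelium summed to 144587 to 347676 normalized counts in the 15 samples, and Epcam alone to 19889 to 28844. The sum was 270858 to 347676 in control + vehicle and 178915 to 299430 in control + A83-01, and lay below the control + vehicle range in both groups with the deletion (144756 to 258886, and 144587 to 215049 with A83-01 added). The leukocyte markers, of which Cd68 was the largest part outside Smad2/3 cKO replicate 2, summed to 1315 to 2938 in control + vehicle and to between 3407 and 8763 in control + A83-01; after the deletion they summed to between 2117 and 8111, and with A83-01 added to between 4032 and 7975. The part of these shifts in the members' results was not tested. Markers of stromal fibroblasts summed to 10.5 to 675, with Col6a3 the largest part of the highest sums, those of smooth muscle to 29.9 to 219, and the endothelial markers to at most 27.6. Smad2/3 cKO replicate 2 stood apart by macrophage RNA: Lyz2 was 3372 there and at most 86.9 in the 14 other samples, and Adgre1 was 351 there and at most 9.01 elsewhere. Whole-gene levels of the targeted genes do not show the deleted exons: Smad2 was 1045 to 1335 in control + vehicle and 821 to 924 in Smad2/3 cKO, while Smad3 was 1532 to 1741 and 1170 to 1977. In Smad2/3 cKO + A83-01 replicate 2, Smad2 (1211) was the highest and Smad3 (797) the lowest of its group. Organoids are bulk samples, so fewer cells of a kind and less RNA per cell cannot be told apart.

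Fn1 (ENSMUSG00000026193, chromosome 1) was close to silent wherever SMAD2/3 signaling had been blocked. The 3 control + vehicle samples held 1884, 3828 and 5624 normalized counts. The 4 control + A83-01 samples held 4.64, 10.5, 5.55 and 18.6. Smad2/3 cKO samples held 1.77, 0.633, 17.9 and 19.3, and Smad2/3 cKO + A83-01 samples held 9.47, 21.2, 14.2 and 9.86. The lowest control + vehicle sample thus lay far above the highest of the 12 other samples, and 2 of the Smad2/3 cKO samples were under the floor of 3 normalized counts used here. The mean was 3779 ± 1870 (SD, n = 3) in control + vehicle, 385-fold above control + A83-01 (9.81 ± 6.39, n = 4), 381-fold above Smad2/3 cKO (9.91 ± 10.1, n = 4) and 276-fold above Smad2/3 cKO + A83-01 (13.7 ± 5.44, n = 4). On the log2(normalized count + 1) scale used for all fits, which understates the change of low values, the differences were -8.49 (SE 0.53), -9.06 (SE 0.91) and -7.94 (SE 0.42). Fn1 had the lowest log2 fold change of all 13009 genes tested in control + A83-01 vs. control + vehicle and of all 13149 in Smad2/3 cKO vs. control + vehicle, and ranked 4 of 13097 in Smad2/3 cKO + A83-01 vs. control + vehicle.

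Fn1 is also a product of fibroblasts, and the 9 stromal markers measured summed to between 105 and 220 in control + vehicle. Their sum was 23.9 to 188 in the control organoids given A83-01, between 14.6 and 675 after the deletion, and between 10.5 and 587 with deletion and inhibitor together. Among them Col1a1 was 2.65 to 34.7 in control + vehicle, at 0 in all 4 control + A83-01 samples, at most 5.48 in Smad2/3 cKO and, with A83-01 added, at most 20.2. Vim was 2.85 to 15.8 in control + vehicle, at most 13.4 in control + A83-01, 36.5 in Smad2/3 cKO replicate 2 and at most 0.862 in the other Smad2/3 cKO samples, and at 0 in all 4 Smad2/3 cKO + A83-01 samples. Dcn was 0 to 19.4 in control + vehicle, at most 2.53 in control + A83-01, at 0 in every Smad2/3 cKO sample, while Smad2/3 cKO + A83-01 held between 2.06 and 44.3. Col3a1 lay between 0 and 43.0 in control + vehicle and between 0 and 41.7 in Smad2/3 cKO + A83-01, with at most 2.09 in control + A83-01 and 9.51 in Smad2/3 cKO. Col1a2 was 11.4 to 70.45 in control + vehicle. It was at most 19.85 in control + A83-01, 8.81 in Smad2/3 cKO and 12.2 with A83-01 added. Col6a3 went the other way in some samples. It was 14.6 to 68.1 in control + vehicle, but 163 in control + A83-01 replicate 3. Replicate 4 held 653 in Smad2/3 cKO and 544 in Smad2/3 cKO + A83-01, most of the highest sum of each of these groups. The smooth muscle sum was 73.9 to 219 in control + vehicle and 29.9 to 86.5 in the 12 other samples. The part of these cells in the Fn1 result was not tested.

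Among the subunits that bind fibronectin, Itga5 (ENSMUSG00000000555, chromosome 15), the α chain of α5β1, showed the widest separation. It was 1306, 1601 and 1733 in control + vehicle. Control + A83-01 samples held 340, 385, 259 and 194, Smad2/3 cKO samples 249, 352, 386 and 163, and Smad2/3 cKO + A83-01 samples 201, 262, 223 and 169. All 12 of these samples were below every control + vehicle sample, and the 3 groups overlapped each other. The mean of 1547 ± 219 (n = 3) in control + vehicle was 5.25-fold that of control + A83-01, 5.38-fold that of Smad2/3 cKO and 7.24-fold that of Smad2/3 cKO + A83-01. The log2 differences were -2.43 (SE 0.26), -2.49 (SE 0.29) and -2.86 (SE 0.20).

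Itgb1 (ENSMUSG00000025809, chromosome 8), the β chain shared by the receptors for fibronectin, collagen and laminin, was 17339, 19860 and 13376 in control + vehicle. It was 6945, 11581, 11882 and 9269 in control + A83-01, and 9802, 10771, 11803 and 11411 in Smad2/3 cKO. Smad2/3 cKO + A83-01 samples held 10573, 8485, 11264 and 11903. The 12 samples without intact SMAD2/3 signaling all lay below the lowest control + vehicle sample, but by a smaller step than for Itga5: the log2 differences from control + vehicle were -0.78 (SE 0.23), -0.61 (SE 0.16) and -0.67 (SE 0.18), in the same order of groups.

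Itgav (ENSMUSG00000027087, chromosome 2), the α chain of the vitronectin receptors, was 6211, 6206 and 5631 in control + vehicle, 3233, 7428, 4514 and 4129 in control + A83-01, 8213, 6847, 4053 and 6150 in Smad2/3 cKO, and 5152, 5734, 3409 and 4425 in Smad2/3 cKO + A83-01. All 3 other groups overlapped the control + vehicle range, and the log2 differences from control + vehicle were -0.39 (SE 0.26), 0.03 (SE 0.22) and -0.39 (SE 0.18). Its partner Itgb5 (ENSMUSG00000022817, chromosome 16) was 9989, 8280 and 6456 in control + vehicle. Control + A83-01 samples held 5345, 4508, 2829 and 4761, Smad2/3 cKO samples 3566, 3634, 4116 and 3586, and Smad2/3 cKO + A83-01 samples 3016, 3266, 3923 and 3125. Every one of the 12 samples was below the control + vehicle range, with log2 differences of -0.94 (SE 0.25), -1.12 (SE 0.16) and -1.29 (SE 0.17).

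Itgb6 (ENSMUSG00000026971, chromosome 2), whose αvβ6 integrin is found on epithelium and releases active TGFβ from its latent complex, was 1091, 1284 and 1042 in control + vehicle and 508, 955, 927 and 832 in control + A83-01. Smad2/3 cKO samples held 1333, 438, 694 and 330, and Smad2/3 cKO + A83-01 samples 238, 1130, 352 and 290. Control + A83-01 lay wholly below control + vehicle, whereas each group with the deletion held a single sample at the control level (replicate 1 of Smad2/3 cKO and replicate 2 of Smad2/3 cKO + A83-01). The log2 differences from control + vehicle were -0.54 (SE 0.24), -0.91 (SE 0.41) and -1.48 (SE 0.46), and the last became -1.97 (SE 0.20) without Smad2/3 cKO + A83-01 replicate 2. Itgb3 (ENSMUSG00000020689, chromosome 11), known from platelets, was near the floor throughout: 0, 7.63 and 15.9 in control + vehicle, 0 in 3 control + A83-01 samples and 4.00 in the fourth, between 3.22 and 12.7 in Smad2/3 cKO, and between 1.28 and 14.6 with A83-01 added. With a mean under 10 it entered no test.

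The collagen and laminin receptors did not move as a block. Itga2 (ENSMUSG00000015533, chromosome 13), the α chain of the collagen receptor α2β1, was 1173, 1728 and 2330 in control + vehicle, 473, 655, 655 and 196 in control + A83-01, and 278, 354, 529 and 346 in Smad2/3 cKO. It was 434, 78.2, 196 and 134 in Smad2/3 cKO + A83-01, the group with the lowest mean (210.5 ± 156, n = 4). None of the 12 reached the lowest control + vehicle sample, and the log2 differences were -1.91 (SE 0.43), -2.19 (SE 0.28) and -3.27 (SE 0.50).

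Itga6 (ENSMUSG00000027111, chromosome 2), which pairs with β1 or β4 to bind laminin, went the other way. It was 4178, 4774 and 6814 in control + vehicle, 4846, 10622, 14629 and 10094 in control + A83-01, 14533, 10089, 9198 and 15528 in Smad2/3 cKO, and 13553, 11961, 10212 and 15100 in Smad2/3 cKO + A83-01. All 8 samples with the deletion were above the control + vehicle range, while replicate 1 of control + A83-01 was inside it. The log2 differences were 0.86 (SE 0.35), 1.23 (SE 0.24) and 1.29 (SE 0.20). Itga3 (ENSMUSG00000001507, chromosome 11), the α chain of the laminin receptor α3β1, ranged from 8300 to 9871 in control + vehicle, and control + A83-01 (6447 to 9894) covered that range on both sides. Smad2/3 cKO values lay between 3746 and 8484, and those of Smad2/3 cKO + A83-01 between 5705 and 7843. Its lowest value was that of Smad2/3 cKO replicate 2, and the log2 difference of Smad2/3 cKO from control + vehicle was -0.57 (SE 0.25) with that sample and -0.34 (SE 0.18) without it.

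**Figure D1:**
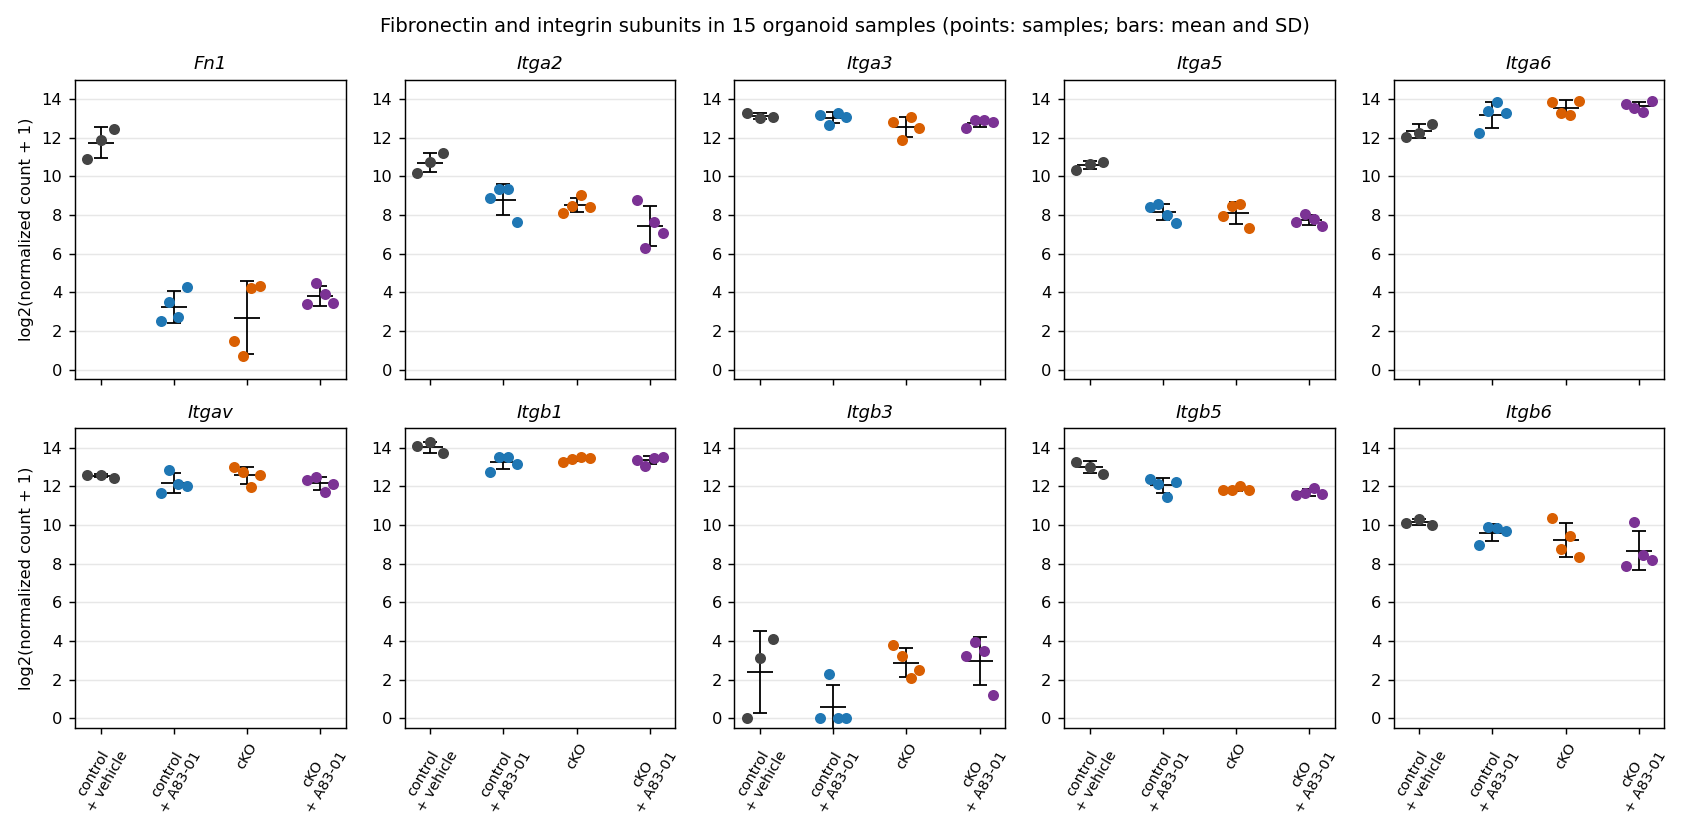
Level of the 10 members in each of the 15 samples, as log2(normalized count + 1), with 1 panel for each gene, 1 point for each sample, and bars for the mean and SD of each group (n = 3, 4, 4 and 4). Fn1 is at 1884 to 5624 normalized counts in control + vehicle and at 0.633 to 21.2 in the 12 other samples, Itga5 separates in the same way by a smaller step, and Itga6 is higher in both groups with the deletion.

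A gene was called when limma's Benjamini-Hochberg adjusted p was below 0.01 and its fold above 1.4 in either direction. In control + A83-01 vs. control + vehicle, 2.27% of the genes tested were called, and 2 of the 9 members tested were among them, Fn1 and Itga5. With the replicate number as a block, which pairs the control samples, 4 members were called, Itga2 and Itgb5 being added. Without control + vehicle replicate 2, and with no block, the count was 1. The background was 7.38% in Smad2/3 cKO vs. control + vehicle, where 5 of the 9 members were called: Fn1, Itga2, Itga5 and Itgb5 lower and Itga6 higher. The count was 4 without the sample rich in macrophage RNA, where 652 genes of the whole table were called in place of 970. It was 3 without control + vehicle replicate 1 or without its replicate 2. Itga6 was called in 2 of the 7 fits that left out a sample, and Itgb5 in 5, while Fn1, Itga2 and Itga5 were called in all 7. The same 5 members were called in Smad2/3 cKO + A83-01 vs. control + vehicle against a background of 11.7%, and 3 without control + vehicle replicate 2. These comparisons include the values on which the set was chosen and share their 3 control samples, so nothing about the family is read from these counts. The shares of all genes in this paragraph belong to the fits with every sample and no block. They do not apply to the member counts with a block or without a sample. The groups did not overlap for 6 of the 9 members in the first comparison (21.7% of all genes tested), 6 in the second (30.8%) and 7 in the third (33%).

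**Figure D2:**
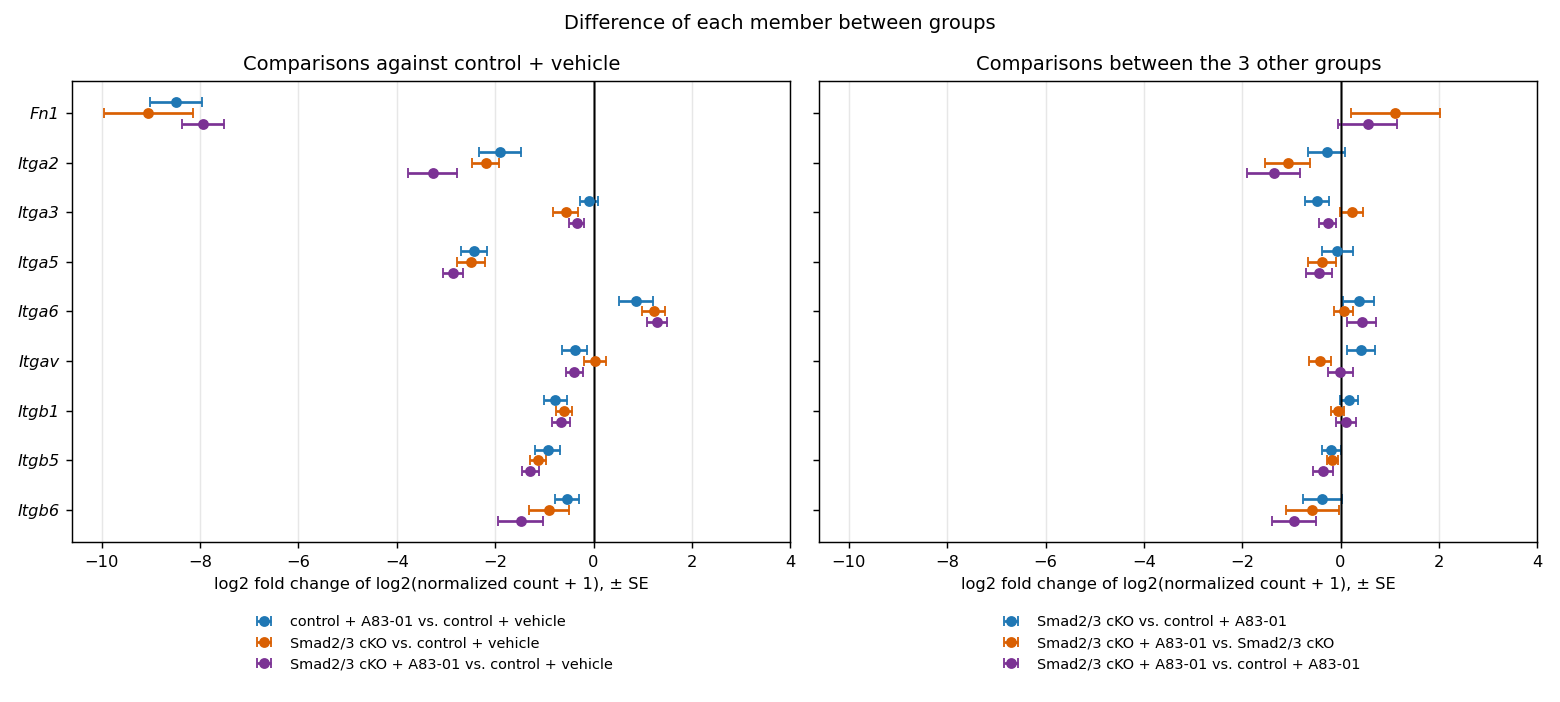
Log2 fold change of the 9 members tested, with bars for the standard error, in the 3 comparisons against control + vehicle (left) and in those between the 3 other groups (right); both axes have the same range. Fn1 lies between -9.06 and -7.94 on the left, and on the right no member was called; Fn1 has no point in Smad2/3 cKO vs. control + A83-01, where its mean was under 10.

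The 3 groups without intact SMAD2/3 signaling were compared with tests, since none of them is the control + vehicle group. The low Fn1 level without SMAD2/3 signaling was itself known when the set was chosen. For Fn1 the differences between these groups are therefore descriptions. No member was called in any of these comparisons, and few genes of the whole table were: 0% in Smad2/3 cKO vs. control + A83-01, 0% in Smad2/3 cKO + A83-01 vs. Smad2/3 cKO and 0.0232% in Smad2/3 cKO + A83-01 vs. control + A83-01. An unadjusted limma p below 0.05 was reached by 826 of 12980, 554 of 12998 and 1229 of 12915 genes in these comparisons. Of the members it was 0 of 8, 1 of 9 and 1 of 9. No member's groups were free of overlap (3.45%, 2.9% and 6.12% of all genes).

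Deletion and inhibitor were compared directly in Smad2/3 cKO vs. control + A83-01. Itga5 differed by -0.06 on the log2 scale (95% interval -0.78 to 0.65, limma adjusted p = 0.954) and Itgb1 by 0.17 (-0.24 to 0.58, adjusted p = 0.796). The difference of Itgb5 was -0.19 (-0.62 to 0.24, adjusted p = 0.788), and that of Itga6 was 0.37 (-0.35 to 1.08, adjusted p = 0.760). Itga3 had the largest difference and the lowest p, at -0.48 (-1.04 to 0.07, limma adjusted p = 0.722), followed in size by Itgav at 0.41 (-0.21 to 1.03), Itgb6 at -0.37 (-1.26 to 0.52) and Itga2 at -0.28 (-1.13 to 0.57). The intervals of the 8 members tested reach from -1.26 to 1.08, so that equal levels are not shown. Fn1 was not tested, at means of 9.91 and 9.81.

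With A83-01 added to Smad2/3 cKO organoids, the values of every member overlapped those of the vehicle-treated Smad2/3 cKO samples. Fn1 differed by 1.12 (95% interval -0.89 to 3.12). Itga2 differed by -1.08 (-2.09 to -0.07), Itgav by -0.41 (-0.92 to 0.10) and Itgb1 by -0.06 (-0.36 to 0.24), each with a limma adjusted p of 0.994. Without the sample rich in macrophage RNA, the Fn1 difference was 0.45 (SE 0.80). Between the genotypes under A83-01, the lowest adjusted p of the members was that of Itga2, 0.460, at a difference of -1.36 (-2.56 to -0.16). Itgb6 differed by -0.94 (-1.94 to 0.05, limma adjusted p = 0.555), or by -1.43 (SE 0.27, adjusted p = 0.125) without Smad2/3 cKO + A83-01 replicate 2.

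The effect of A83-01 in the 2 genotypes was set side by side over all 15 samples. Subtracting the effect in control from that in Smad2/3 cKO gave 9.61 (SE 1.1) for Fn1 and 2.06 (SE 0.40) for Itga5. The difference was 0.77 (SE 0.27) for Itgb5, 0.72 (SE 0.26) for Itgb1 and -0.80 (SE 0.42) for Itga6. These values use the control + vehicle samples and are given without a p-value. Across all 13066 genes, 0.551% had a limma adjusted p below 0.01. For Fn1 the effects were -8.49 in control and 1.12 in Smad2/3 cKO. Smad2/3 cKO samples already held 0.633 to 19.3 normalized counts of Fn1 without A83-01, where a further fall could hardly be seen.

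Levels of different subunits were compared per kilobase of exon, as a share of the 15 α or 8 β subunits measured. The length was that of all annotated exons of a gene joined, not of the transcripts expressed. Orders between genes and shares depend on this length. In control + vehicle, Itga3 was the leading α chain at 1568 ± 143 normalized counts per kb (SD, n = 3), or 46.6% ± 5.67 of all α. Itga6 (582 ± 153) and Itgav (560 ± 31.0) followed and did not differ beyond their spread, and below them Itga5 (314 ± 44.3) and Itga2 (244 ± 81.1) overlapped within theirs. In control + A83-01, Itga3 kept 46.2% ± 10.7 (n = 4), Itga6 made up 32.8% ± 8.64 against 17.1% ± 3.37 in control + vehicle, and Itga5 1.88% ± 0.71 against 9.28% ± 1.04. Among Smad2/3 cKO samples, Itga6 led with 40.9% ± 6.86, ahead of Itga3 with 33.0% ± 9.68, though their ranges met (31.9 to 48.6% and 24.2 to 46.5%). The same order was seen in Smad2/3 cKO + A83-01, at 42.5% ± 5.24 and 37.7% ± 6.07.

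The β chains changed less in their proportions. Itgb1 was the leading β chain in every group, at 56.0% ± 3.64 in control + vehicle, 56.7% ± 8.03 in control + A83-01, 61.6% ± 1.53 in Smad2/3 cKO and 62.6% ± 4.26 in Smad2/3 cKO + A83-01. Itgb5 was next at 31.4% ± 3.27, 29.6% ± 9.95, 24.1% ± 0.97 and 22.8% ± 2.54. Itgb4, the partner of α6 in hemidesmosomes and no member of the set, held 9.51 to 11.0% as group means, and Itgb6 1.83 to 2.63%. A steady share is not a steady level. Itgb4 was 4704 to 5302 normalized counts in control + vehicle and 1808 to 4677 in all other samples. Per kb, the mean of Itgb1 was 4131 in control + vehicle and 2430 to 2682 in the other groups, and that of Itgb5 2320 and 938 to 1227. Fn1 itself was at 323 ± 160 per kb in control + vehicle, on the level of Itga5, and at 0.84 ± 0.55, 0.85 ± 0.86 and 1.17 ± 0.47 in the 3 other groups.

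**Figure D3:**
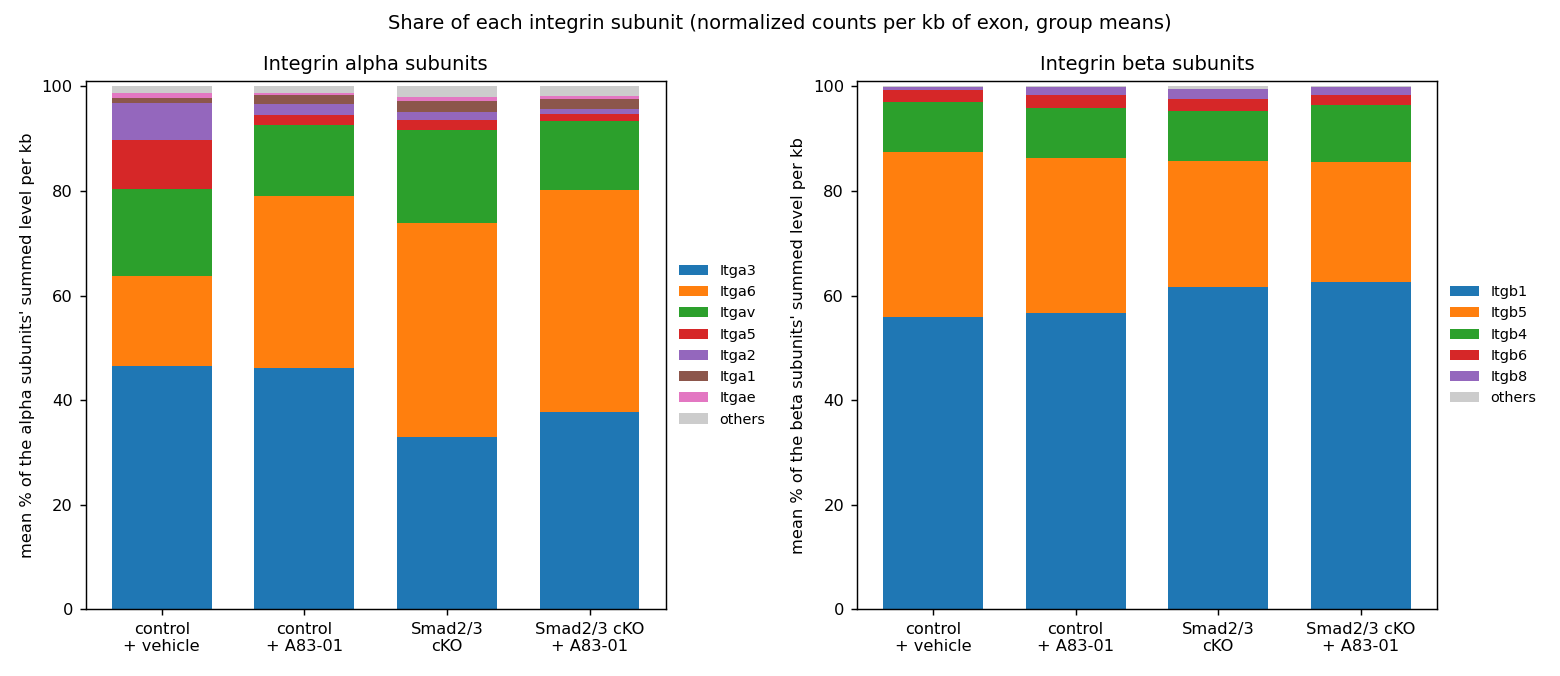
Mean share of each integrin subunit, as a percentage of the summed level of the 15 α chains (left) or 8 β chains (right) per kilobase of exon, with 1 stacked bar for each group. The Itga6 band grows from 17.1% in control + vehicle to 32.8%, 40.9% and 42.5% in the other groups while those of Itga5 and Itga2 shrink, and the β chains keep Itgb1 ahead of Itgb5 in every group.

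The partners of these receptors were followed through 6 lists of adhesion genes (105 genes). Their tests are printed, but the lists too were put together with earlier results of these data known, so that the calls are no independent evidence. In control + A83-01 vs. control + vehicle, 7 of the 82 genes tested were called, 2 higher and 5 lower. Smad2/3 cKO vs. control + vehicle called 16 of 86, 5 higher and 11 lower, and Smad2/3 cKO + A83-01 vs. control + vehicle called 26 of 83, 8 higher and 18 lower. The shares of 8.54%, 18.6% and 31.3% stand beside the 2.27%, 7.38% and 11.7% of all genes. No gene of these lists was called between the 3 other groups. There, in the order given above, 8 of 83, 5 of 84 and 15 of 80 had an unadjusted limma p below 0.05. Of all genes, these were 826 of 12980, 554 of 12998 and 1229 of 12915. Leaving out each sample in turn, 1 of the 7 (Tgfb2), 3 of the 16 (Fermt1, Sdc2 and Tgfb2) and 11 of the 26 genes were called every time. The counts were 1, 3 and 13 without control + vehicle replicate 1.

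Of the 28 cytoplasmic partners tested (integrin adhesion complex), 1 was called lower in control + A83-01 (3.57%, against 2.27% of all genes). It was Actn1, the actin cross-linker α-actinin, with a log2 difference of -1.12 (SE 0.14, limma adjusted p = 0.00253). After the deletion (Smad2/3 cKO), 3 of 29 were called, all lower (10.3%, against 7.38% of all genes), while 22 of the 29 differences were below 0. Fermt1, which encodes kindlin-1, an activator of β chains, fell by 1.79 on the log2 scale (SE 0.21, adjusted p = 0.00112), and was called whichever sample was left out; Actn1 fell by 1.11 (SE 0.21, adjusted p = 0.00778) and the scaffold Bcar1 by 0.71 (SE 0.11, adjusted p = 0.00387). The comparison Smad2/3 cKO + A83-01 vs. control + vehicle called 5 of 28, all lower (17.9%, against 11.7% of all genes). Ptk2, the focal adhesion kinase (-0.83, SE 0.16, adjusted p = 0.00615), and Vasp (-0.61, SE 0.12, adjusted p = 0.00661) were added there. Ptk2 lost its call on removal of any single sample, and the other calls of this list apart from Fermt1 were kept in at most 3 of the 7 fits that left out a sample.

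Other integrin ligands held the largest number of calls, with 4 of 20, 8 of 21 and 10 of 21. These were 20%, 38.1% and 47.6%, beside 2.27%, 7.38% and 11.7% of all genes. Tnc, the matrix protein tenascin-C, fell from 146 normalized counts in control + vehicle to 3.06 in Smad2/3 cKO (log2 -5.34, SE 0.74, limma adjusted p = 0.00220). It was 1.81, under the floor, in Smad2/3 cKO + A83-01 (-6.02, SE 0.79, adjusted p = 7.26e-04). In control + A83-01 it fell to 1.60, also under the floor (log2 -6.37), a call kept in 2 of the 7 fits that left out a sample. The Tnc call in Smad2/3 cKO was kept in 5 of 7 such fits, and that with A83-01 added in all 7. Ccn2, a matricellular protein and TGFβ target, fell in all 3 groups, with log2 differences of -2.72 (SE 0.29), -2.94 (SE 0.43) and -3.84 (SE 0.27). Its calls were kept in 5, 5 and 7 of 7 such fits. Lama3, the α chain of laminin-332, fell from 3822 to 606 in Smad2/3 cKO (-2.82, SE 0.44, adjusted p = 0.00368), in 4 of 7 such fits. The opposite direction was taken by Fga, the fibrinogen α chain, from 19.7 to 318 in Smad2/3 cKO (4.05, SE 0.67, adjusted p = 0.00455), in 2 of the 7 fits that left out a sample. Lamb1, the β1 chain of laminins, was also called lower in control + A83-01 (-1.64, SE 0.225, adjusted p = 0.00415), in 3 of 7 such fits. It was chosen after its values were seen.

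Among the co-receptors and assembly factors of fibronectin, the 2 largest differences were those of syndecans. Sdc2 was 477 in control + vehicle, 60.8 in Smad2/3 cKO and 63.5 in Smad2/3 cKO + A83-01 (log2 -2.99, SE 0.28, limma adjusted p = 3.64e-04, and -2.94, SE 0.30, adjusted p = 1.95e-04), and was called whichever sample was left out. Sdc3 fell by 3.60 (SE 0.41) in control + A83-01 and by 3.40 (SE 0.39) in Smad2/3 cKO + A83-01, and was -3.16 (SE 0.68, adjusted p = 0.0132) in Smad2/3 cKO, outside the threshold. The transglutaminase Tgm2, which cross-links fibronectin, rose by 1.33 (SE 0.24, adjusted p = 0.00410) in Smad2/3 cKO + A83-01, in 2 of the 7 fits that left out a sample. In total 1, 1 and 4 of 17 genes of this list were called. These were 5.88%, 5.88% and 23.5%, beside 2.27%, 7.38% and 11.7% of all genes, so the share in Smad2/3 cKO was under its background.

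In the latent TGFβ list, Tgfb2 rose from 129, 229 and 235 normalized counts in control + vehicle to between 9135 and 17364 in control + A83-01. It lay between 12859 and 33790 in Smad2/3 cKO, and the addition of A83-01 gave 22364 to 41707. Its log2 differences of 6.13 (SE 0.28), 6.86 (SE 0.33) and 7.22 (SE 0.27) passed the thresholds under every leave-one-out. Tgfb3 rose by 1.52 (SE 0.24, limma adjusted p = 0.00389) in Smad2/3 cKO, though in 1 of the 7 fits that left out a sample, and by 1.84 (SE 0.14, adjusted p = 3.28e-05) in Smad2/3 cKO + A83-01. The latent TGFβ binding proteins Ltbp1 (-0.66, SE 0.13) and Ltbp2 (-2.80, SE 0.61) fell in Smad2/3 cKO + A83-01, Ltbp1 in none and Ltbp2 in 1 of the 7 fits that left out a sample. Of the α chains outside the set, the collagen receptor chain Itga1 rose by 1.21 (SE 0.20, adjusted p = 0.00412) in Smad2/3 cKO and by 1.17 (SE 0.19, adjusted p = 0.00230) with A83-01 added. Itga2b (platelet αIIb) rose by 2.54 (SE 0.50) and 2.73 (SE 0.56) in the same groups, each in 1 of 7 such fits, and Itgal, the leukocyte chain αL, by 3.76 (SE 0.64) in the latter. Of the 4 leukocyte markers tested there, 2 were called higher and 1 lower, where 11.7% of all genes were called. Ptprc rose from 12.5 to 38.5 normalized counts up to 119 to 513. Cd68 rose from 1180 to 2474 up to 3678 to 7407, while Lyz2 fell from 41.2 to 70.8 down to at most 8.73. In control + A83-01, where none of the 4 was called, Ptprc was 68.5 to 236, above every control + vehicle sample. Their part in the rise of Itgal was not tested. None of the 4 other β chains was called, though Itgb4 was lower in Smad2/3 cKO without overlap (-0.76, SE 0.175, limma adjusted p = 0.0172, outside the threshold).

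**Figure D4:**
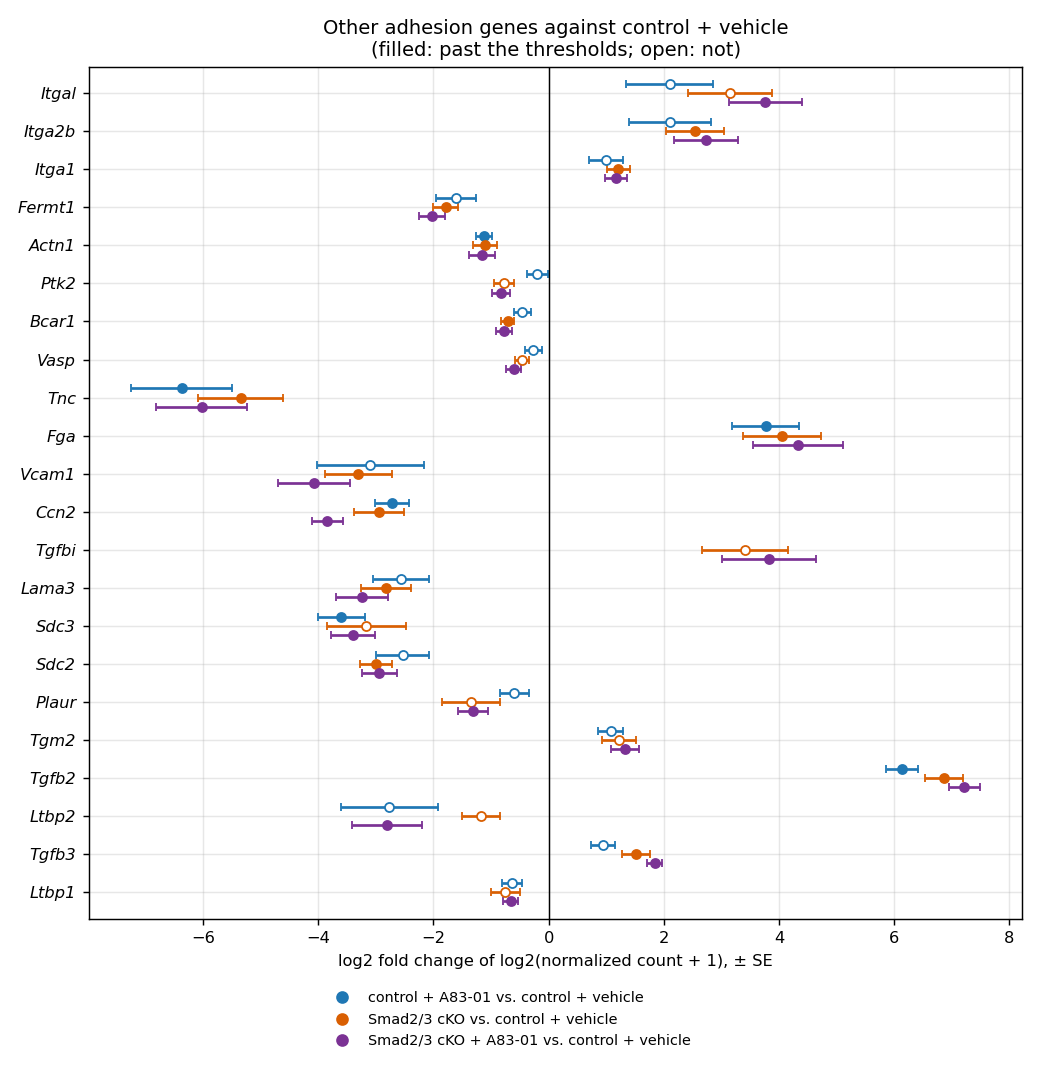
Log2 fold change (points) and standard error (bars) of the 22 adhesion genes outside the set that were named by the rule, in the 3 comparisons against control + vehicle; filled points passed the adjusted p and fold thresholds and open points did not. Tgfb2 lies at 6.13 to 7.22 and Tnc at -6.37 to -5.34, and a gene under the minimum mean in a comparison has no point there.

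The genes whose pattern was most like that of Fn1 were sought among 13066 genes over the 15 samples, by Pearson's r of log2 values. They were Slc6a2 (r = 0.952), Chrna1 (0.942), Tpbg (0.941), Uba1 (0.932) and Kcng1 (0.930). Slc6a2, the noradrenaline transporter, was at 95.3 to 136 normalized counts in control + vehicle and listed at 0 in the 12 other samples, and Chrna1, a muscle acetylcholine receptor subunit, was at 1817 to 4403 against 29.8 to 157. For Itgb6 the nearest genes were Poglut1 (0.858), Ddah1 (0.850), Bdh1 (0.849), Rnd1 (0.847) and Sh3kbp1 (0.843). Among the members, Itga6 ran against Itgb5 (r = -0.92) and Itga5 (-0.80), while Itga5 ran with Itgb5 and with Fn1 (0.86 each). These coefficients are descriptions over 4 groups that were already apart, with library and sample shared by both genes of a pair.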

How the data were processed

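Organoid RNA was sequenced in 15 samples, each assigned to its group by the GEO labels, which carry several numbers for each genotype. For the conditions listed in its methods, the paper states that the RNA came from different mice. Per the labels and the study's methods, low-input libraries (SMART-Seq) were quantified by the authors with Salmon 1.4.0 on GRCm39 and processed with DESeq2 1.32.0 into normalized counts. The values deposited by the authors are these normalized counts, a signal that is not whole-number counts: whole reads could not be recovered, read depth per sample is unknown, and no count test was run. Symbols were matched for 16697 of the 16729 Ensembl identifiers.

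Genes averaging 10 or more normalized counts over the samples compared were fitted as log2(normalized count + 1) with limma 3.58.1 (R 4.3.3; lmFit and eBayes with trend) on the whole table. The study's limits were used for a call, namely an adjusted p (Benjamini-Hochberg) under 0.01 with a fold over 1.4 in either direction. The fits were tested on simulated data. How far the A83-01 effect differed between genotypes was fitted over all 15 samples. Marker sums were compared by two-sided exact permutation tests, whose smallest possible p at 3 against 4 samples is 0.0571. The lowest adjusted p of the 15 such tests was 0.214. Exon lengths came from GENCODE (GRCm38), and promoters from RefSeq. Python 3.11.15 was used for tables and figures.

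The members and gene lists were chosen with earlier results of these data known. Named were the 10 members, Smad2 and Smad3, of each list at most 6 called genes by the largest change, and 5 genes most like Fn1 and Itgb6; Lamb1 was added later. Same-numbered control samples with and without A83-01 (3 pairs; the fourth control + A83-01 sample has no partner) deviated together from their group means (r = 0.354 to 0.423, against a mean of -0.133 for other pairs), so these numbers pair the samples. The main fit of this comparison, which gave the differences and standard errors in the text, did not use the pairing. Its fit with the replicate block did, and is given as an alternative. Replicate numbers of the other comparisons join different label numbers, apart from 367, which stands in both genotypes, and same-numbered samples did not all deviate together. The label number 369 is shared by Smad2/3 cKO replicate 2 and Smad2/3 cKO + A83-01 replicate 1 (r = 0.355); with 1 such pair, these groups could not be blocked by label number. Alternatives were 2 pseudocounts, 2 filters, quantile normalization, all groups in the fit, the replicate block, adjusted p below 0.05 and leaving out each sample.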

Additional observations from a re-analysis of the deposited data

Results flagged for a closer look

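Of 39 groups of 4 samples checked for the members, Smad2, Smad3 and Tgfb2, 5 held a sample whose gap to its neighbour, as a share of the group's range, exceeded Dixon's 95% critical value, where chance flags about 1 in 20. These were Itgb3 in control + A83-01 replicate 2 (4.00 normalized counts, the others at 0), Itgb5 in Smad2/3 cKO replicate 3 (4116), and, all in Smad2/3 cKO + A83-01 replicate 2, Itgb6 (1130, highest), Smad2 (1211, highest) and Smad3 (797, lowest). That 3 of the 5 fell on the same sample, which also had the lowest Itga2 (78.2) of all 15, was not tested further.

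The difference between the genotypes in the effect of A83-01 was looked at again for Fn1 and Tgfb2. For Fn1 the effect in Smad2/3 cKO minus that in control was 9.61 on the log2 scale, between 8.95 and 10.2 when each sample was left out in turn. This Fn1 value uses the samples the set was chosen on, so it is a description with no p-value. Smad2/3 cKO samples already held 0.633 to 19.3 normalized counts of Fn1 without A83-01, where a further fall could hardly be seen. For Tgfb2 the difference was -5.78 (SE 0.44, limma adjusted p = 9.75e-06), between -6.04 and -5.49 when each sample was left out, with an adjusted p of at most 6.00e-05. Tgfb2 was taken up here because of this adjusted p, and its list was made with earlier results of these data known, so the p is no independent evidence. Its mean was 198 in control + vehicle, 23610 in Smad2/3 cKO without A83-01 and 29471 with A83-01 added.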

How the results depend on the processing

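Log2 fold changes of the members kept their sign where the member was called. Of 475 alternative values, 474 stayed within the replicate spread (comparisons with control + vehicle) or on the same side of the thresholds (the others). The exception was Fn1 in control + A83-01 vs. control + vehicle with a pseudocount of 10, -7.50 in place of -8.49. Against control + vehicle this rule looked at size alone, so a lost call did not count: Itga6 in Smad2/3 cKO kept its call in 2 of 7 leave-one-out fits. There, leaving out 1 sample, changing the filter or fitting all groups could not have broken the rule, so stability is not shown by it. Counts of calls moved far more. In control + A83-01 vs. control + vehicle (295 genes called), the count was 655 with all 4 groups in the fit, 955 at an adjusted p below 0.05, and 49 to 312 when each sample was left out; 1 to 2 members and 1 to 9 adhesion genes were then called, and 14 adhesion genes at the looser p. With the replicate block 4 members were called. In Smad2/3 cKO vs. control + vehicle (970), 2410 genes and 31 adhesion genes were called at the looser p, and 280 to 992 genes, 3 to 5 members and 3 to 18 adhesion genes with a sample left out. In Smad2/3 cKO + A83-01 vs. control + vehicle (1538), the values were 2928 genes and 40 adhesion genes at the looser p, and 736 to 1580 genes, 3 to 6 members and 13 to 28 adhesion genes with a sample left out. The lowest of all these counts came without control + vehicle replicate 1 or 2, in a group of 3. In Smad2/3 cKO + A83-01 vs. control + A83-01 (3 genes), 5 were called with all groups in the fit and 0 to 4 with a sample left out.

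Outside the control groups, the replicate block used replicate numbers that mostly join different label numbers (mean r of same-numbered samples -0.061 to 0.13), and it gave 211 genes, 3 members and 5 adhesion genes in Smad2/3 cKO vs. control + vehicle, 568, 2 and 12 in Smad2/3 cKO + A83-01 vs. control + vehicle, and 0 genes in Smad2/3 cKO + A83-01 vs. control + A83-01. For the difference between genotypes (72 genes, 1 of them an adhesion gene), 39 to 77 genes and 1 to 2 adhesion genes remained with a sample left out, and 2 adhesion genes with a pseudocount of 10 or with the replicate block. The other alternatives kept these counts within 1.5 times, and the cause of the shifts was not tested. Read depth is unknown, so the precision of low values such as Fn1 outside control + vehicle and Itgb3 cannot be stated.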
